A study of Drosophila melanogaster with 2 samples.

Results

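The pair-rule segmentation genes eve, ftz, hry (hairy), run, odd, prd, slp1, slp2 and opa were examined for binding of Araucan in whole Drosophila melanogaster embryos. They were taken as the 9 named genes of 13945 protein-coding genes, and a locus here means a gene plus its flanks of 5 kb. Araucan is a homeodomain factor of the Iroquois complex. The embryos, collected from 0 to 24 h, expressed an ara-eGFP fusion, a GFP-tagged Araucan, from an inserted transgene, and sonicated chromatin of 200 to 800 bp was pulled down through the tag with an anti-GFP antibody. All samples formed 1 group with 2 biological replicates, all from the ara-GFP strain, with the promoter of the transgene not given in the sources used here. No group was compared with another, so the results are descriptions with no test. The signals are the authors' own values per peak, in units whose normalization and read depth are unknown. A conservative list of reproducible peaks held 4706 peaks on the assembled arms, with a median signal of 96.2, and a series-wide ranked list held 147187 peaks of any strength with their signal in each replicate.

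Pair-rule genes act in the middle of the segmentation hierarchy. Maternal gradients and gap genes set most of them up in transverse stripes across the blastoderm embryo, whereas opa is expressed in a broad band. They regulate one another, and together they place the segment polarity genes that keep each segment boundary. All 9 encode transcription factors: Eve, Ftz and Prd carry homeodomains, Hry is a basic helix-loop-helix repressor, Run is a Runx factor, Odd and Opa are zinc finger proteins, and Slp1 and Slp2 are related forkhead proteins. Several are used again later, for example eve, run, ftz and prd in the nervous system, eve in the heart, and slp1 and slp2 in the epidermis and neuroblasts. A sample of embryos of 0 to 24 h holds the stripe stage as a small share and mixes all tissues, so a peak cannot be placed in a stage or a cell type.

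Conservative summits lay in 4 of the 9 loci, at slp2, slp1, odd and hry, and together these loci held 6 summits (a summit is the highest point of a peak). Signals ran from 563 at slp2 down to 60.4 at hry, and 5 of the 6 summits lay outside any annotated gene, against 34.7% of all conservative summits. The 34.7% is taken with no locus rule and is not a like share. The 4 bound loci are mostly flank, from 1.425 kb of gene in 11.425 kb at slp1 to 3.495 kb in 13.495 kb at hry. The rule thus favours summits outside the member gene, and a like share was not computed. Beside the 4 of 9 bound loci, 43.7% of all protein-coding loci held a summit. So did 45.6% of loci in a pool of the 500 protein-coding genes nearest in locus length to each member. The share of bound members is close to both values. The sequences around the 6 summits are shown because they are the places where Araucan signal passed the reproducibility threshold, on the plus strand of dm6 (equal windows centred on each summit, read from the RefSeq Release 6 genome). Capitals mark matches, on either strand, to the letters searched: ACANNTGT and TAACA (Iroquois sites), TAATTA (homeodomain core), CAGGTA (Zelda), GAGAG (GAGA factor), TATCGATA (DREF), the controls TACAA and ACTNNAGT, and GGTCACACT (M1BP), which was added after these sequences were seen.
slp2 strongest summit, chr2L:3832470-3832570: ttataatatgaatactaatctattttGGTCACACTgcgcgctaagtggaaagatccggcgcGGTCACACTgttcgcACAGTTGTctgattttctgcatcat
slp2 second summit, chr2L:3841135-3841235: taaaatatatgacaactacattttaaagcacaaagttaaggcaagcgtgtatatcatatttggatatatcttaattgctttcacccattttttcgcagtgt
slp1 summit, chr2L:3827815-3827915: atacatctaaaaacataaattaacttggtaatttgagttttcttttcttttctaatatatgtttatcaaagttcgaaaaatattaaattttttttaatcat
odd strongest summit, chr2L:3601003-3601103: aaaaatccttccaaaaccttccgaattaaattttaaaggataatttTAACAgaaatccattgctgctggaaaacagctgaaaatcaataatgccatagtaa
odd second summit, chr2L:3599683-3599783: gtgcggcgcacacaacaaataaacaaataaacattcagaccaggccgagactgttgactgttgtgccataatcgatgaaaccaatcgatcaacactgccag
hry summit, chr3L:8675750-8675850: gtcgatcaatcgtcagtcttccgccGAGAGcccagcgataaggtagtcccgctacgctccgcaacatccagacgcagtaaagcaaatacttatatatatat

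Each Iroquois form was found once in the 6 windows. The palindrome ACANNTGT was in the strongest slp2 window alone, as ACAGTTGT with its centre 30 bp from the summit, and it is in 4.80% of all 4706 summit windows. The pentamer TAACA was in the strongest odd window alone and is in 24.5% of all summit windows. GAGAG was in the hry window alone (11.8% of all windows), and none of the 6 held TAATTA (8.73% of all windows), CAGGTA (2.17%), TATCGATA (0.935%), TACAA (27.6%) or ACTNNAGT (2.61%). With windows wider on both sides, and also with the whole peak, 4 of the 6 held an Iroquois form. The share of all conservative peaks with one was 28.0% in the printed window size (2 of the 6 here), 45.6% in the wider windows and 57.7% in whole peaks. The strongest slp2 window held GGTCACACT in 2 places, with centres 20 bp before and 15 bp after the summit. Of all 4706 summit windows 19 held GGTCACACT (0.404%) and 1 held it more than once, which is this slp2 window. In promoters of protein-coding start sites (250 bp before to 50 bp after, 19607 in all, longer than the windows) 5.23% held GGTCACACT, 13.3% ACANNTGT, 51.6% TAACA, 18.9% TAATTA, 6.39% CAGGTA, 33.1% GAGAG, 7.98% TATCGATA, 54.2% TACAA and 6.98% ACTNNAGT. No match in the 6 windows overlapped a match to other letters. The windows also differed in base composition. The slp1 window had a GC share of 16.8%, with 0.680% of all summit windows lower, whereas the hry window reached 48.5%, the second odd window 45.5% and the strongest slp2 window 42.6%. The remaining odd and slp2 windows were at 29.7%, and the median of all summit windows was 34.7% (quartiles 28.7% and 45.5%).

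At hry, a basic helix-loop-helix repressor gene that restricts other pair-rule stripes, the conservative summit was at the promoter and was weak. The gene (FBgn0001168) lies on the plus strand of 3L, at 8675759 to 8679253. The peak at 8675638 to 8675961 had a signal of 60.4, higher than 9.84% of the conservative peaks, with 27.8 in replicate 1 and 32.8 in replicate 2. Its summit was 41 bp after the start, and it was in neither replicate's own thresholded list. Its reproducibility score of 837 (of at most 1000) put it just inside the conservative list, whose lowest score is 830. The slp1 start site peak, with nearly the same signal and a score of 803, was just outside. Of the 6 pair-rule summits this was the only one inside a gene or within 500 bp of the member's own start site. Among all conservative summits, which no locus rule limits, 36.7% were within 500 bp of a protein-coding start site. Other peaks in the hry locus reached 53.6, 52.1 and 50.7 past its 3' end, with scores from 177 to 528. A stronger summit beyond the locus, at 8668343, was 7416 bp before the start with a signal of 111 (37.4 in replicate 1 and 67.5 in replicate 2).

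At odd, a zinc finger repressor gene, the signal lay past the 3' end. The odd gene (FBgn0002985) is on the minus strand of 2L, at 3604224 to 3606756. The stronger peak, at 3600891 to 3601214, had a signal of 87.3, with 38.4 in replicate 1 and 50.1 in replicate 2, and its summit was 3171 bp past the 3' end. The second peak, at 3599571 to 3599894, had 77.3, with 38.1 and 43.5 in replicates 1 and 2, and its summit was 4491 bp past the 3' end, 1320 bp from the first. Both signals were below the median of the conservative list. A further conservative summit, at 3598700, fell just outside the locus, 5524 bp past the 3' end, and was higher than both at 145 (55.2 in replicate 1 and 89.8 in replicate 2). These 3 summits spanned 2353 bp, and odd had the nearest protein-coding start site for each of them. Around the start site of odd itself the highest ranked peak reached 34.4, with 19.96 in replicate 1 and 9.18 in replicate 2.

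The slp1 locus held 1 conservative peak, at 3827703 to 3828026 on 2L with a signal of 194, higher than 82.4% of the conservative peaks. The slp1 gene (FBgn0003430, plus strand, 3825675 to 3827099) encodes a forkhead protein related to that of slp2. The signal was 68.5 in replicate 1 and 124 in replicate 2. This summit was 766 bp past the 3' end of slp1, so it and the strongest slp2 summit both fell in the 9740 bp that separate the paralogs, and these were the 2 conservative summits there. Both replicates thus held peaks on both sides of slp2 and between the genes. In contrast, the start site of slp1 had a peak of 60.03 (26.6 in replicate 1 and 33.4 in replicate 2) with its summit 141 bp before the start. The start site of slp2 had 36.0, with the summit 96 bp before the start.

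The strongest pair-rule binding was at slp2, one of the neighbouring sloppy-paired genes that act late in the pair-rule network and in parasegment patterning. The slp2 gene (FBgn0004567) lies on the plus strand of 2L, at 3836840 to 3839185. The peak at 3832433 to 3832610 had a signal of 563, which ranked 110 among the conservative peaks and was higher than 97.7% of them. Its signal was 200 in replicate 1 and 357 in replicate 2, and it was in the thresholded list of each replicate. At 178 bp it was narrower than the usual 324 bp, and 5.95% of conservative peaks were as narrow or narrower. Its summit lay outside any annotated gene, 4320 bp before the start of slp2 and 5421 bp past the 3' end of slp1. A second slp2 peak at 3841023 to 3841346 had a signal of 176, with 79.7 in replicate 1 and 97.3 in replicate 2. Its summit was 2000 bp past the 3' end of slp2, again outside any gene.

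**Figure D1:**
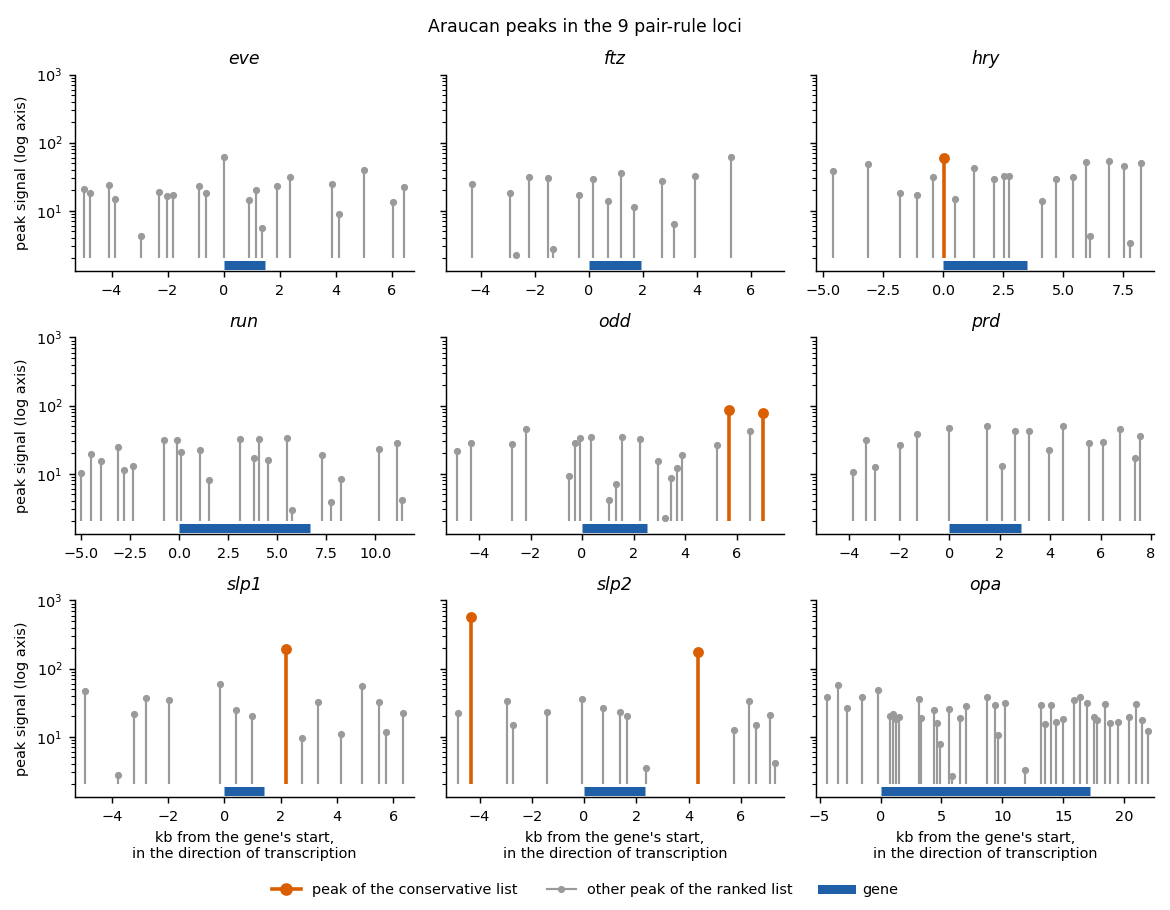
Peak signal (log axis) against distance in kb from the gene's start, in the direction of transcription, for the 9 pair-rule loci; orange stems are peaks of the conservative list, grey stems other peaks of the ranked list, and blue bars the genes. The 6 orange stems reach 563 and 176 at slp2, 194 at slp1, 87.3 and 77.3 at odd and 60.4 at hry, and only the hry stem stands at the gene's start.

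Signals were compared between replicates at the 6 summits. Replicate 2 was higher at all 6, by ratios from 1.14 at the second odd summit to 1.81 at slp1. Over all conservative peaks the median ratio of replicate 2 to replicate 1 was 1.31 (upper quartile 1.62), so the direction is that of the whole list. The order of the 6 signals was nearly the same in each replicate, the strongest slp2 peak first and hry last, with slp1 and the second slp2 peak changing places. The conservative list was itself chosen for reproducible peaks in these replicates, so this likeness is no separate evidence of reproducibility. In the thresholded lists of single replicates, 4 of the 6 summits overlapped a peak of both, the stronger odd summit overlapped a peak of replicate 2 only, and hry overlapped none.

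**Figure D2:**
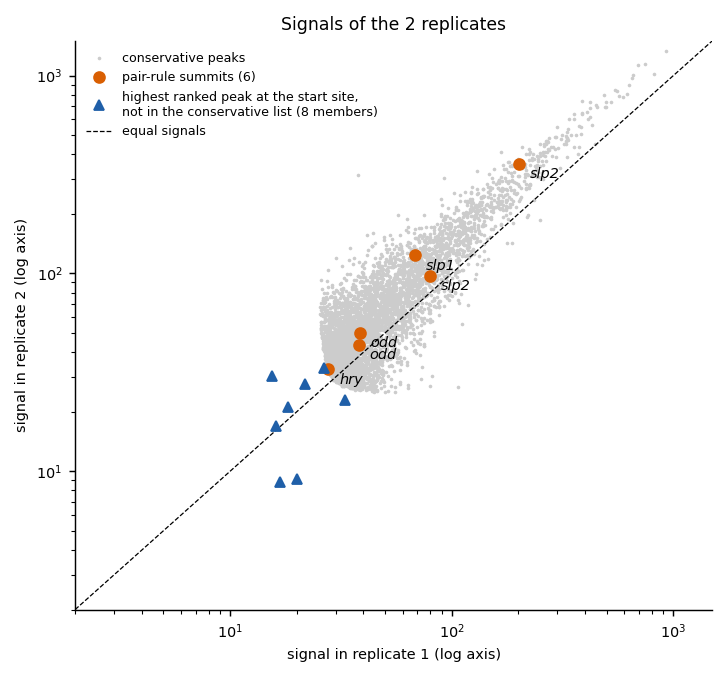
Signal in replicate 2 against replicate 1 (log axes, authors' units) for all conservative peaks (grey), the 6 pair-rule summits (orange) and the highest ranked peak within 500 bp of the start site of the 8 members whose start site peak was not in the conservative list (blue triangles). All 6 pair-rule summits lie above the dashed line of equal signals, as most grey points do, from hry at 27.8 and 32.8 up to slp2 at 200 and 357.

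No conservative summit lay in the loci of eve, ftz, prd, opa and run, and the ranked list shows what was there below the threshold. All 9 loci had ranked peaks throughout, at 1.26 to 1.83 per kb, against 1.10 per kb genome-wide. The genome-wide value is not limited to gene loci, and the density in other protein-coding loci was not compared. At eve, a homeodomain repressor gene (FBgn0000606, plus strand, 9979319 to 9980795), the highest peak sat on the start site, with its summit 27 bp inside the gene. Its signal of 60.7 was close to that of hry, at 33.1 in replicate 1 and 22.9 in replicate 2, with a score of 685 in the ranked list, and it was in the other, longer thresholded list. The next peak at eve, 3535 bp past its 3' end, had 40.0. At run, the Runx gene (FBgn0003300, X, plus strand, 20690670 to 20697321), the highest of 23 ranked peaks reached 33.7, the lowest such value among the 9 members, with 20.2 in replicate 1 and 10.2 in replicate 2.

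At ftz, a homeodomain gene within the Antennapedia complex (FBgn0001077, 3R, plus strand, 6864324 to 6866244), the highest peak was 3339 bp past the 3' end with a signal of 62.5. It had 21.5 in replicate 1 and 36.3 in replicate 2. Replicate 2's own thresholded list held 1 summit in the ftz locus and that of replicate 1 held none. Whether that summit belongs to this peak was not checked. The start site peak of ftz reached 28.8, the lowest of the 9 members. At opa, the zinc finger gene of the Zic family that acts on the timing of the pair-rule network (FBgn0003002, 3R, plus strand, 4852813 to 4869979), the highest peak was 3525 bp before the start with 57.0 (31.7 in replicate 1 and 23.4 in replicate 2, score 704). A conservative summit stood just outside the opa locus, 5855 bp before the start, with a signal of 134 (40.4 in replicate 1 and 85.5 in replicate 2).

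At prd, a gene for a paired domain and homeodomain activator (FBgn0003145, 2L, minus strand, 12082995 to 12085827), a peak of 49.6 inside the gene had 5.86 in replicate 1 and 22.8 in replicate 2. A peak 1676 bp past the 3' end had almost the same signal, 49.6, with 21.2 in replicate 1 and 29.1 in replicate 2. A peak at the prd start site, 16 bp before the start, had 46.7 with 21.8 and 27.6 in replicates 1 and 2.

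Each of the 9 members had some ranked peak within 500 bp of a start site, as had 82.3% of protein-coding genes. These start site peaks ran from 28.8 at ftz, 31.8 at run, 34.4 at odd and 36.0 at slp2 to 46.7 at prd, 48.5 at opa, 60.03 at slp1, 60.4 at hry and 60.7 at eve. The median of such peaks over genes that had one was 35.0, and the eve value was higher than 79.5% of them.

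By the highest ranked signal in the locus, slp2 stood above 97.6% of protein-coding loci, slp1 above 87.1% and odd above 67.7%. The members ftz, eve and hry, from 60.4 to 62.5, were close to 59.9, the median over the 13500 loci with a ranked peak, as was opa at 57.0. Whether these members differ from each other beyond error was not tested. Each value is a single series-wide signal, and the replicate signals run lower (27.8 and 32.8 beside 60.4 at hry), so their gap does not measure its error. The values of prd and run were above 36.5% and 8.49% of loci. These shares are of all 13945 loci, with those without a ranked peak counted as lower. Among the 500 genes nearest in locus length, slp2 was above 98.2%, slp1 above 88.2%, odd above 67.8%, opa above 28.6% and run above 7.80%.

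**Figure D3:**
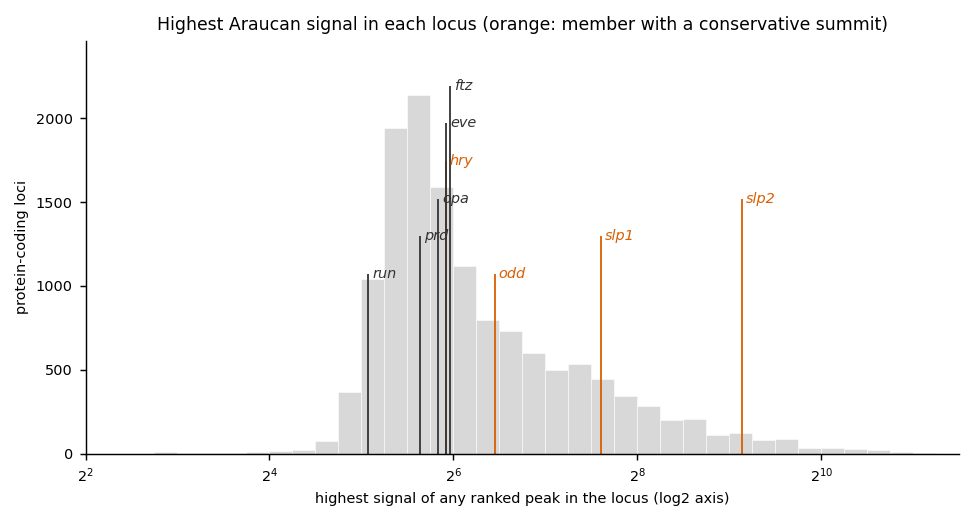
Histogram of the highest signal of any ranked peak in each protein-coding locus (log2 axis; height is the number of loci), with the 9 members as labelled lines whose heights carry no meaning; orange lines are members with a conservative summit. From run at 33.7 to ftz at 62.5, 6 members lie in the bulk of the distribution, and odd (87.3), slp1 (194) and slp2 (563) lie to the right.

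The count of bound members was also taken in the other lists. In the longer thresholded list 5 of 9 loci held a summit, with eve added, against 47.6% of protein-coding loci. In replicate 1's own list 3 of 9 did (odd, slp1 and slp2), against 28.6%. In replicate 2's own list 4 of 9 did, with ftz in place of hry, against 40.4%. The loci of slp1, slp2 and odd were thus bound in every list, while hry, eve and ftz entered or left with the list.

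Other levels of the segmentation hierarchy were set beside the pair-rule genes. Among maternal genes 5 of 6 loci held a conservative summit. For this and the counts below, the share of all protein-coding loci with a summit was 43.7%. The highest was at bcd, the anterior morphogen gene, at 241 with the summit 69 bp before its start. In the other 4 bound maternal loci the highest summit was nearest to the start of another gene, such as Nsun5, 85 bp from the peak of 233 in the locus of nanos, the posterior determinant gene, pyd, 55 bp away at osk, and Pomp, 269 bp away at cad. For the bound pair-rule, gap and segment polarity loci the highest summit was nearest to the member's own start. The gap gene Kr and the segment polarity gene ci are not analysed here and are left out of the counts. Among the other gap genes 2 of 8 loci held a conservative summit, those of oc (232) and ems (105). Among the other segment polarity genes 6 of 9 loci did, led by nkd, a Wnt feedback inhibitor gene (288, 20433 bp past its nearest start site), and inv, an engrailed paralog (176). The median of the highest ranked signal was 60.7 for pair-rule, 165 for maternal, 44.8 for gap and 85.2 for segment polarity loci, and these groups were not tested against each other. Locus length was not taken into account in these counts and medians.

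Relatives of odd were described as well. Of the 8 modifiers and odd family genes 7 loci held a summit. The highest were bowl (477, with its summit 216 bp before the start) and sob (306), both zinc finger genes of the odd family, the second a neighbour of odd on 2L. At bowl the signal was 199 in replicate 1 and 282 in replicate 2, and at sob 105 and 208. The sob peak was 2063 bp from the start of CG43815, nearer than to that of sob. The highest peak in the drm locus (146) was also nearer to another start, that of IFT57 at 3866 bp. Of the 7 bound loci, 4 had the member's own start nearest to the highest summit. The share of all protein-coding loci with a summit, 43.7%, does not take account of locus length, and these genes were not compared with others of their length.

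**Figure D4:**
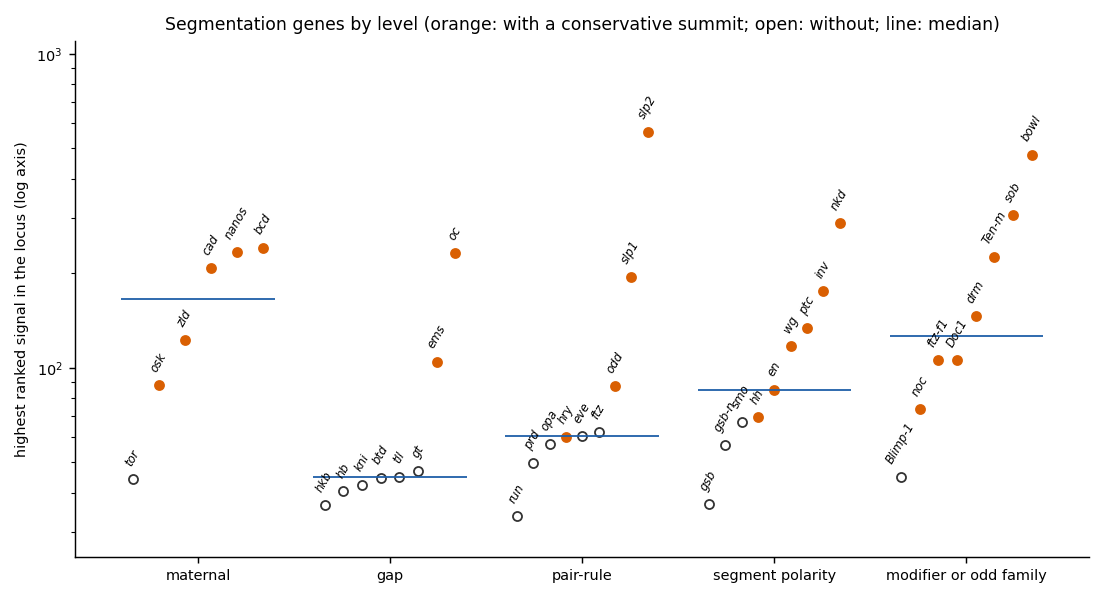
Highest ranked signal in each locus (log axis) for maternal, gap, pair-rule and segment polarity genes and for modifiers and odd family genes; orange points had a conservative summit in the locus, open points had none, and blue lines are medians. The pair-rule genes run from run at 33.7 to slp2 at 563, and 2 of the 8 gap loci drawn are orange.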

How the data were processed

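Peaks were deposited for whole embryos with 2 biological replicates; per the labels they are on dm6, with aligner, peak caller and depth not given in the sources used here. Signal values are the authors' own, with unknown normalization. The deposited score, at most 1000, was read as the reproducibility of a peak's rank. The deposited ranked list also has a −log10 column, read as the global irreproducible discovery rate, with a minimum of 2.00 over conservative peaks. Control libraries were not used here.

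The ranked list has 2 unnamed sets of replicate values. Of 147187 peaks, 118355 had a first value identical to a peak deposited for replicate 1 (0 for replicate 2), and 114571 had a second value identical to one for replicate 2 (0 for replicate 1). Both sets matched in this way for all 6 pair-rule summits.

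Summits were counted on the 6 assembled arms with Ensembl release 115 (BDGP6), without transposable elements. Distances are to the nearest annotated start of the gene. The locus rule, lists, letters and alternatives were chosen with earlier results of these data known. All members are named, with every summit; of the other lists, the highest loci. Windows are shown for all 6 summits, wider than the planned strongest summit per locus, and no protein sequences were used here. Counting was tested on simulated data for summits planted just inside the end of a locus and for planted motif letters. Whether summits outside a locus are left out was not tested in this way. Tables were handled with pandas 2.3.3 and numpy 2.4.6 and drawn with matplotlib 3.10.9, under Python 3.11.15.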

Additional observations from a re-analysis of the deposited data

How the results depend on the processing

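The count of 4 bound pair-rule loci ran from 3 to 5 with the single replicates' lists, the other list, 10 kb flanks or whole peaks, and was 6 when each summit went to its nearest start site. It was 2 with only peaks at or above the median signal and 1 with no flanks, when hry alone was left. The 6 summits became 3 at or above the median, 1 with no flanks, 10 with 10 kb flanks and 14 by nearest start site. The highest signal, 563, was 200.2 to 357 in single replicates and 60.4 with no flanks. The share of protein-coding loci with a summit was 47.6% in the other list, 28.6% to 40.4% in single replicates, 28.5% at or above the median, 12.2% with no flanks, 58.6% with 10 kb flanks and 20.4% by nearest start site. Of 31 other segmentation loci analysed 20 held a summit, against 43.7% of all protein-coding loci, and 12 with no flanks, against 12.2%. Gene length was not taken into account in these counts, and a longer gene has more room for a summit. The lists hold long genes, with the highest summit 119342 bp from the start at Ten-m and 24964 bp at inv. No excess can be read from these counts. Windows with an Iroquois form numbered 2 of 6, 4 with wider windows or whole peaks, and 1 held GGTCACACT, a search added after the data were seen. Flanks fix these counts by construction, because 5 of the 6 summits lay outside the genes. Read depth is unknown, so signals near the threshold, as at hry, slp1's start and eve, cannot be given an error beyond their 2 replicate values. No paired analysis was possible because the samples form 1 group.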

Other observations

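For the unbound members, the nearest conservative summit outside the locus was also examined. At eve, prd and run it was nearest to the start of another gene, and at ftz and opa to the member's own. The nearest to eve was 19399 bp away with a signal of 612 and lay 158 bp from the start of Pal1. The nearest to prd, 17764 bp away at 158, lay 160 bp from the start of ThrRS, the threonyl-tRNA synthetase gene, and the nearest to run, 35442 bp away at 256, lay 1894 bp from that of Cyp6v1. At ftz the nearest was 15606 bp away at 157 with ftz as the nearest protein-coding start site, at 17526 bp. At opa it was 5855 bp away with a signal of 134.

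Conservative summits between 5 and 10 kb from a member added 4 to the 6 within 5 kb, and all 4 lay outside annotated genes. Those of odd, hry and opa had the member itself as the nearest protein-coding start site. The fourth, 6514 bp before the start of slp1 with a signal of 115.2 (56.5 in replicate 1 and 53.3 in replicate 2), was 5751 bp from the start of CG3407.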
